A study of Homo sapiens with 21 samples.

Results

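The 10 genes described here are neighbours on the short arm of human chromosome 9, in band 9p21: KLHL9, MTAP, CDKN2A, CDKN2B, TUSC1, CAAP1, PLAA, IFT74, MOB3B and C9orf72. They were taken by symbol through the gene identifiers of the tables, and all 10 had 1 row each among 60617. They were chosen by their measured expected counts and TPM: 6 of them, TUSC1 to C9orf72, were nearly silent in E, EM1, EM3 and Parental and expressed in EM2, M1 and M2, and the rest are their neighbours. That difference is therefore described below without a test. The question is how far the silent stretch reaches towards CDKN2A and MTAP. RNA came from SUM149PT, an established inflammatory breast cancer cell line labelled as lacking estrogen and progesterone receptors. The lines were the Parental line and 6 clones (E and 3 EM clones, EM1 to EM3, and the clones M1 and M2), all untreated, with 3 libraries of poly(A) RNA each, 21 in all. Each clone is a single line, so a difference between lines is a difference between those clones. The labels do not state whether replicate libraries are independent cultures, and every p-value below measures their spread, which may be technical.

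Library totals were 24.6 to 48.1, in units of 1e6 expected counts, the reads assigned to genes by the authors. The mean effective gene length was 1001 to 1018 bases in all 3 libraries of E and in replicate 3 of the other 5 clones, 1020 to 1037 bases in Parental and 1031 to 1068 bases in the remaining libraries. The labelled lack of progesterone receptor (PGR) was matched by PGR RNA at a mean of at most 0.02 TPM (transcripts scaled by length and library) in every line. Estrogen receptor (ESR1) RNA averaged 0.01 to 1.71 TPM and was detected in every library. It had 73 to 188 counts per library in EM1, EM3 and Parental and 1 to 42 in the other lines. The epithelial adhesion gene EPCAM stood at 150 to 361 TPM in E, the 3 EM clones and Parental, and at 1.98 TPM in M1 and 0.13 TPM in M2. EM2, which expressed the TUSC1 to C9orf72 genes as M1 and M2 did, had an EPCAM mean of 150 TPM. Markers of blood and endothelial cells (PTPRC, CD3E, LYZ and PECAM1, 4 in all) summed to between 0.05 and 1.58 TPM in any library, and the T-cell gene CD3E reached at most 0.05 TPM.

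Band 9p21 is known for the CDKN2A and CDKN2B genes, which are often lost in human tumours. CDKN2A encodes p16, which inhibits the cyclin D kinases CDK4 and CDK6 and keeps the retinoblastoma protein active, and from a separate first exon p14ARF, which holds back the ubiquitin ligase MDM2. CDKN2B encodes the related inhibitor p15, and MTAP next to them encodes the enzyme that recycles methylthioadenosine from polyamine synthesis to methionine. The flanking genes serve other processes: ubiquitin ligase adaptors, apoptosis, ubiquitin handling by the VCP ATPase, ciliary transport, kinase activation and autophagy.

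In chromosome order KLHL9 came first (chr9:21329671-21335380, hg38, minus strand), followed after 0.467 Mb by MTAP (chr9:21802543-21937651, plus strand). CDKN2A (chr9:21967753-21995301) and CDKN2B (chr9:22002903-22009363) lay next to it on the minus strand. A gap of 3.67 Mb separated the end of CDKN2B from TUSC1 (chr9:25676389-25678440, minus strand). CAAP1 (chr9:26840685-26892804, minus), PLAA (chr9:26904083-26947463, minus), IFT74 (chr9:26947039-27062930, plus), MOB3B (chr9:27325209-27529781, minus) and C9orf72 (chr9:27546545-27573866, minus) completed the series. The stretch from TUSC1 to C9orf72 spanned 1.90 Mb. PLAA and IFT74 are read in opposite directions, away from each other, and their annotated 5′ ends overlap by 0.425 kb. The strand setting of the counting is not given in the sources used here, so reads of overlapping genes, and of CDKN2A or CDKN2B against the antisense transcript CDKN2B-AS1, could not be told apart.

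The promoter windows of 4 of these genes are shown because they mark the steps of the pattern along the chromosome. KLHL9 was expressed in every line, and MTAP and CDKN2A were near zero in every line. TUSC1 was the first of the genes nearly silent in E, EM1, EM3 and Parental and expressed in EM2, M1 and M2. Each sequence is the 250 bases before the RefSeq start (GRCh38.p14), read 5′ to 3′ on the strand of the gene, with CG dinucleotides, the sites of DNA methylation in mammals, in capitals. The coordinates are chr9:21335405-21335654 (minus strand) for KLHL9, chr9:21802386-21802635 (plus) for MTAP, chr9:21974858-21975107 (minus) for the inner of the 2 starts of CDKN2A, and chr9:25678445-25678694 (minus) for TUSC1.
KLHL9: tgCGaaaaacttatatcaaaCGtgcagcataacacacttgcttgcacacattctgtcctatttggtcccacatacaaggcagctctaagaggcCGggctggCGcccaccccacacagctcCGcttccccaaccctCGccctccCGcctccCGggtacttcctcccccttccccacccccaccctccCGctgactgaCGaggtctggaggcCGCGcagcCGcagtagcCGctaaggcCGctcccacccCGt
MTAP: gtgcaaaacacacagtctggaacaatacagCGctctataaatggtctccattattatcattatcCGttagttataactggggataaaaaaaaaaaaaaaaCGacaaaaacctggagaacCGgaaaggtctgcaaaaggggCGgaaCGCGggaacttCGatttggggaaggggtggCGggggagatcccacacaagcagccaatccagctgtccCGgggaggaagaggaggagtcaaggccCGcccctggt
CDKN2A: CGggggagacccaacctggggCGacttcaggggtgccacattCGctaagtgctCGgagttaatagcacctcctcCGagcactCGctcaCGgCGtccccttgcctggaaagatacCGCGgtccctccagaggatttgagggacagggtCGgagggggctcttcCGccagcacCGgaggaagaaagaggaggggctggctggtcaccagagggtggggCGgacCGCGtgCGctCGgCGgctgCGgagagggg
TUSC1: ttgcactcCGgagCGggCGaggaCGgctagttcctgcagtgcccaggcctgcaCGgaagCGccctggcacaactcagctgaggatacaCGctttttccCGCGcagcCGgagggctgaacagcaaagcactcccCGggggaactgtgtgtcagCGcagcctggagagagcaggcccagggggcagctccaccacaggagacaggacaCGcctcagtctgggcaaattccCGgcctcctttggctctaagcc
These 250 bases held 16 CG in KLHL9, 11 in MTAP, 20 in CDKN2A and 14 in TUSC1.

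The table of RefSeq promoters matched 9 of the 10 genes, with 13 windows of 300 bases (250 before and 50 after a start), and CAAP1 had no entry. CG counts in these windows ran from 15 in MTAP to 32 at 1 of the 3 starts of IFT74. Over all 35116 promoter windows of that length the median was 14, with quartiles of 4 and 28. KLHL9, expressed in every line, and MOB3B, silent in 4, both had 19, while TUSC1 had 22 and PLAA had 23. The motif GGGCGG, searched on both strands, was found in windows of MTAP, CDKN2A, CDKN2B, TUSC1, PLAA, IFT74 and C9orf72, and in 45.0% of all promoters. It was not found in the KLHL9 or MOB3B window. TATAAA, on either strand, was found in the MTAP window only and in 11.5% of all promoters. CCAAT was found in windows of MTAP, IFT74 and C9orf72 against 34.6% of all promoters. The PLAA window and 1 IFT74 window shared 157 bases. These matches describe letters in a window and not sites that are used.

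**Figure D1:**
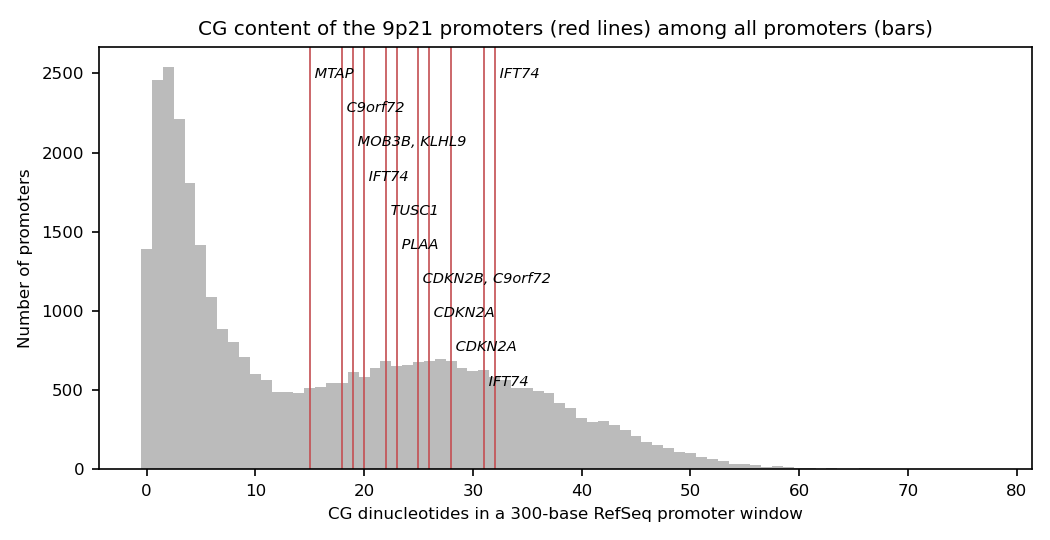
Number of RefSeq promoter windows (vertical axis, grey bars) by the number of CG dinucleotides in 300 bases (horizontal axis), with the windows of the 9p21 genes as red lines. The 13 windows lie between 15 and 32, all above the median of 14 over all promoters.

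KLHL9, the gene on the telomere side, was expressed in every library. It encodes a Kelch adaptor of the CUL3 ubiquitin ligase that works with KLHL13 on Aurora B in mitosis. In CPM, expected counts scaled to 1e6 per library, it stood at 54.1, 57.5 and 57.1 in replicates 1 to 3 of E, at 82.1, 69.0 and 44.4 in EM1, at 72.2, 81.7 and 58.7 in EM3, and at 39.0, 61.4 and 68.6 in Parental. In the lines that expressed the TUSC1 to C9orf72 genes it stood at 36.2, 45.6 and 27.9 CPM in EM2, at 91.6, 70.9 and 58.5 in M1, and at 21.5, 28.1 and 13.9 in M2. No library was below 13.9 CPM, and replicate 3, which had the shorter effective lengths, was the lowest of its line in EM1, EM2, EM3, M1 and M2. On the TPM scale, which is per length, the order of line means was M1 (13.4), EM3 (12.1), EM1 (10.9), Parental (8.37), E (7.54), EM2 (5.95) and M2 (3.56), and the libraries of every 2 neighbours in that order overlapped.

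MTAP, CDKN2A and CDKN2B had almost no counts in any line, including EM2, M1 and M2. MTAP received 13 counts over all 21 libraries, with at most 3 in a library and 0 in 12 libraries. All 3 libraries of E and all 3 of EM2 had 0. CDKN2B received 2 counts, 1 in an EM1 library and 1 in an EM3 library, and 0 in the other 19 libraries. A library with 0 counts allows, at an upper limit of 3 counts, a level of up to 0.0623 to 0.122 CPM depending on its total, for counting error only. No library of any line had more than 3 counts of MTAP or more than 1 of CDKN2B.

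CDKN2A received 31 counts, and 29 of them were in M2. Its M2 libraries had 2, 4 and 23 counts, or 0.053, 0.160 and 0.482 CPM, and 0.14, 0.41 and 0.83 TPM. The remaining 2 counts were 1 in E replicate 3 and 1 in EM3 replicate 2, and the other 16 libraries had 0. All M2 libraries lay above all libraries of the other lines, but 23 of the 29 counts came from M2 replicate 3, and no M2 library reached 0.5 CPM. The antisense transcript CDKN2B-AS1, which overlaps this locus, had at most 3 counts in any library. None of the 3 genes passed the low-count filter of the main fit, so none was tested in it. With no filter, a gene among these 3 was called in M2 against EM2 and in M2 against M1, on counts near zero.

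TUSC1 is a short gene named as a tumor suppressor candidate in lung cancer. It stood at 5.77, 5.40 and 4.80 CPM in EM2, at 5.74, 6.59 and 7.43 in M1, and at 8.27, 9.31 and 7.61 in M2. In E it had 0, 0 and 1 counts, in EM1 3, 0 and 0, and in EM3 and Parental 0 in all 6 libraries. Pooled, 2383 counts in the 9 libraries of EM2, M1 and M2 faced 4 counts in the 12 libraries of E, EM1, EM3 and Parental, a ratio of levels of 758 (exact 95% interval 296 to 2784, counting error only). TUSC1 was thus the gene nearest to CDKN2B, at 3.67 Mb, that was low in the 4 lines and present in the 3.

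CAAP1 encodes an inhibitor of caspase activity and apoptosis. It stood at 7.38, 11.1 and 7.09 CPM in EM2, at 13.0, 8.27 and 6.47 in M1, and at 25.03, 48.4 and 14.8 in M2. The 4 other lines had 5 counts in their 12 libraries against 5004 in the 9 libraries above, a ratio of levels of 1273 (545 to 3923). PLAA, a ubiquitin-binding partner of the VCP ATPase, was the most abundant of the 6 genes in counts. It stood at 31.2, 31.7 and 26.3 CPM in EM2, at 36.3, 35.0 and 27.7 in M1, and at 80.5, 49.8 and 66.6 in M2. Its 12 libraries of the silent lines held 17 counts against 15177, a ratio of 1136 (709 to 1950).

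IFT74 encodes a core subunit of the IFT-B particle, which carries cargo into cilia. It stood at 12.2, 20.8 and 6.90 CPM in EM2, at 19.2, 13.8 and 9.13 in M1, and at 22.6, 59.9 and 15.2 in M2. The silent lines had 13 counts against 6338, a ratio of 620 (362 to 1165). MOB3B, a member of the MOB family of kinase activators, was the weakest of the 6. It stood at 2.57, 2.51 and 1.52 CPM in EM2, at 2.03, 0.923 and 0.779 in M1, and at 5.39, 2.96 and 0.754 in M2, against 5 counts in all 12 libraries of the silent lines (727 in the others, ratio 185, interval 78.9 to 571). Replicate 3 was the lowest library of MOB3B in all 3 lines that express it.

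C9orf72, whose repeat expansion is a cause of inherited motor neuron disease and frontotemporal dementia, encodes a protein that acts with SMCR8 and WDR41 in autophagy. Its level was 3.94, 5.49 and 4.21 CPM in EM2, 7.31, 5.90 and 4.11 in M1, and 10.4, 16.8 and 4.57 in M2. The silent lines had 4 counts against 2288, a ratio of 728 (284 to 2673). In each of the 6 genes the highest silent library lay below the lowest library of EM2, M1 and M2. The closest approach was in MOB3B, with 0.0813 CPM in Parental replicate 2 against 0.754 in M2 replicate 3.

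**Figure D2:**
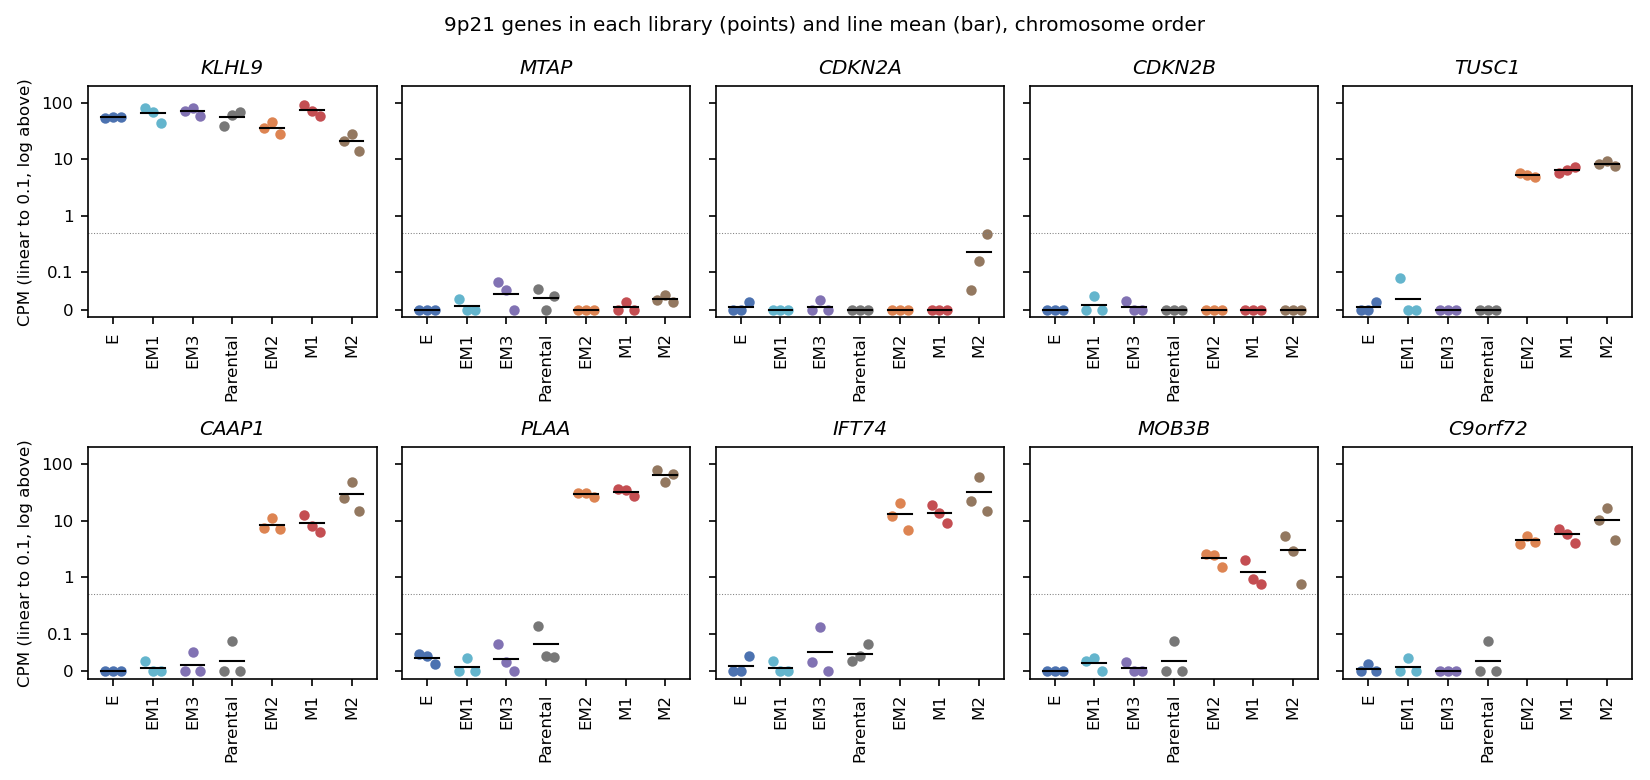
Level of the 10 genes in chromosome order in each library (points) and as the line mean (bars), in CPM on an axis that is linear up to 0.1 and logarithmic above; the dotted line is 0.5 CPM. KLHL9 lies at 13.9 CPM or more in every line, MTAP, CDKN2A and CDKN2B lie under 0.5 CPM in every library, and TUSC1 to C9orf72 lie under 0.5 CPM in 4 lines and above it in 3.

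A few counts of the 6 genes were found in all 4 silent lines, and their origin was not tested. Over the 12 libraries of these lines each gene had 4 to 17 counts, and MTAP, near zero in every line, had 9. Summed over the 6, E had 9 counts, which is 0.103% of the EM2 level (exact 95% interval 0.0469 to 0.195%). EM1 had 9 counts (0.138%, 0.0629 to 0.261%), EM3 had 13 (0.172%, 0.0918 to 0.295%) and Parental had 17 (0.310%, 0.181 to 0.497%). The intervals cover counting error only, and those of neighbours in this order overlap. In bulk RNA a few cells with a gene at a normal level and many cells with very little of it cannot be told apart.

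How far the silent stretch reaches can be read from all annotated genes of the region. A line was scored low for a gene when all 3 libraries were under 0.5 CPM and present when all 3 reached 1 CPM. From RRAGA to KLHL9, 6 of 21 protein-coding genes were present in all 7 lines. Between KLHL9 and TUSC1, over 4.34 Mb, 12 of 13 protein-coding genes were low in all 7 lines, MTAP, CDKN2A and CDKN2B among them, and none was present in any line. Of all protein-coding genes measured, 28.4% were low in all 7 lines. Interferon genes lay in both intervals and were low in all 7 lines, with IFNA1, IFNA2, IFNA6, IFNA8, IFNA13 and IFNE among the 13. Neighbours of 1 family are not a sample of all genes, so the shares are not like for like. The genes that were low in E, EM1, EM3 and Parental and present in EM2, M1 and M2 therefore ended at TUSC1 on the side of CDKN2A. Between KLHL9 and TUSC1 all 13 protein-coding genes were low in EM2 and M1, which left none with which to compare the silent lines, and KLHL9 was expressed in the silent lines too. In M2 1 gene of this interval, described next, was above the low level.

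The exception among the 13 was ELAVL2, a neuronal RNA-binding protein gene that lies 1.68 Mb from CDKN2B and 1.85 Mb from TUSC1. It had 198, 95 and 43 counts in the M2 libraries (5.23, 3.79 and 0.901 CPM) and at most 1 count in any library of the other 6 lines. In the M2 line a gene of the interval was thus transcribed that was not detected above 1 count in EM2 or M1. The only other row of the interval not low in all lines was the pseudogene CLIC4P1, with a maximum of 0.513 CPM in M2. Both genes were singled out after their values were seen.

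Within the stretch itself, from TUSC1 to C9orf72, 10 protein-coding genes are annotated. Of these, 5 were low in the 4 silent lines and present in EM2, M1 and M2 (TUSC1, CAAP1, PLAA, IFT74 and C9orf72). MOB3B missed the score because M1 replicates 2 and 3 and M2 replicate 3 were under 1 CPM. LRRC19, EQTN and IFNK were low in all 7 lines. TEK, the receptor tyrosine kinase of endothelial cells, stood at 0.760, 0.372 and 1.33 CPM in EM2, at 0.213, 0.215 and 0.519 in M1, and at 0, 0.120 and 0 in M2. In the silent lines TEK had 3 counts in all, 2 of them in EM1 replicate 2. TEK was lower in M2 than in EM2 (edgeR quasi-likelihood test, BH-adjusted p = 0.00377) and than in M1 (adjusted p = 0.0329), with no overlap of the libraries in either comparison. M2 thus had the highest mean of each of the 6 genes but the lowest TEK level of the 3 lines.

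On the centromere side the stretch ran into a second interval with few expressed genes, 4.81 Mb from C9orf72 to ACO1. Its 1 protein-coding gene, LINGO2, had 79, 163 and 191 counts in the M2 libraries (2.09, 6.51 and 4.003 CPM), 5, 17 and 9 in EM2, 3, 3 and 4 in M1, and 1 in the 12 libraries of the silent lines. From ACO1 on, 7 of 10 protein-coding genes were present in all 7 lines. Of the others, SMIM27 was present in EM2, M1 and M2 and neither low nor present in E, EM1, EM3 and Parental. ACO1, the cytosolic aconitase and iron regulatory protein, stood at 15.5, 16.8 and 15.2 CPM in E and at 25.6, 25.9 and 29.2 CPM in EM2. It did not follow the division of the lines, since it was also higher in EM1 and EM3 than in E. The log2 differences were 1.39 in EM1 (edgeR BH-adjusted p = 0.000107) and 1.65 in EM3 (adjusted p = 2.02e-05).

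**Figure D3:**
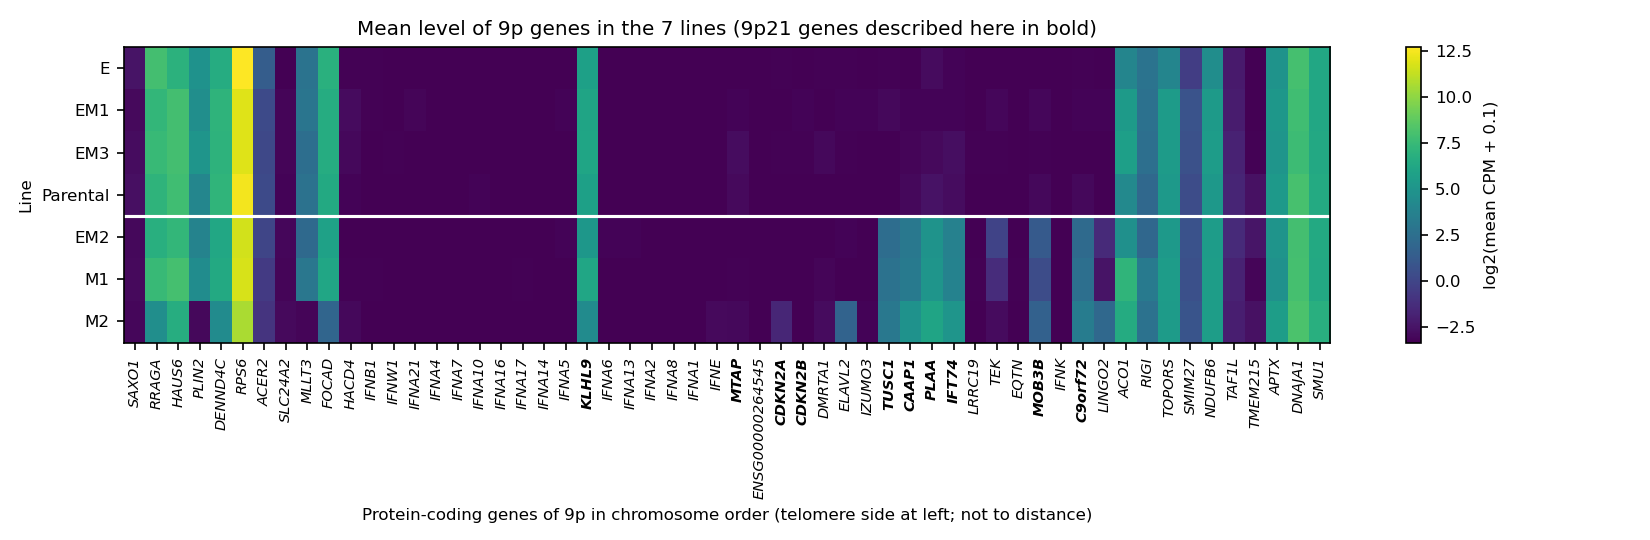
Mean level of the protein-coding genes of 9p from SAXO1 to SMU1 in the 7 lines, as log2(mean CPM + 0.1), with genes in chromosome order and not to distance; the white line divides E, EM1, EM3 and Parental from EM2, M1 and M2. All cells between KLHL9 and ACO1 are dark in the upper 4 lines, whereas TUSC1, CAAP1, PLAA, IFT74, MOB3B and C9orf72 are lit in the lower 3.

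The combination of low in E, EM1, EM3 and Parental with present in EM2, M1 and M2 was rare in the whole table. Of the 60617 rows, only 16297 reached 1 CPM in any library, without which a row cannot meet it. The combination was found in 8 of 60617 rows (0.0132%), all protein coding, and 5 of the 8 were the 9p21 genes named above. LAPTM5 (a lysosomal membrane protein of blood cells, chromosome 1) and NRN1 (neuritin, chromosome 6) were among the others. The mirrored combination, present in the 4 and low in the 3, was found in 6 rows (0.0099%), none of them on chromosome 9, with FGFR2 and HORMAD1 among them. Since these thresholds follow the division by which the 9p21 genes were chosen, the counts describe the table and carry no test.

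The genes outside chromosome 9 with the pattern most like the mean of CAAP1, PLAA and IFT74 were ranked by Pearson's r of log2(TPM + 1) over the 21 libraries, among 13889 genes. MRC2 (r = 0.941), CMBL (0.941), TBX3 (0.932) and SLC26A11 (0.928) were among the 5 highest. MRC2, a collagen receptor, was not silent in the 4 lines, with means of 2.09 to 3.16 TPM there and 7.10 ± 1.26 in EM2, 11.003 ± 0.68 in M1 and 13.6 ± 2.49 in M2 (SD, n = 3). CMBL, a hydrolase, averaged 9.20 ± 2.402 TPM in EM2, 6.78 ± 1.90 in M1 and 21.5 ± 5.16 in M2, at most 0.01 in EM1 and EM3, and 1.35 ± 0.21 in E and 1.46 ± 0.63 in Parental. The libraries share lines and library sets, so these correlations are descriptions.

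Differences among EM2, M1 and M2 were not used to choose the genes and were tested over 18632 genes with edgeR's quasi-likelihood test and Benjamini-Hochberg (BH) adjustment. Of the 10 genes, 7 passed the low-count filter: KLHL9 and the 6 of the TUSC1 to C9orf72 stretch. In M1 against EM2, 17.9% of all genes tested were called (8.37% higher), and 1 of the 7, KLHL9, was called higher. KLHL9 was higher in M1 by 1.08 on the log2 scale (limma-voom SE 0.24, edgeR BH-adjusted p = 0.00397), and all 3 M1 libraries lay above all 3 of EM2. None of the 6 others was called (edgeR BH-adjusted p from 0.491 in MOB3B to 0.896 in IFT74), and their fitted log2 differences lay between -0.78 in MOB3B and 0.40 in C9orf72.

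In M2 against EM2, 45.3% of all genes were called, 21% higher and 24.3% lower. Of the 7 genes 4 were called, 3 higher and 1 lower. CAAP1 rose by 1.79 (SE 0.35, edgeR BH-adjusted p = 0.00679) and PLAA by 1.17 (SE 0.23, adjusted p = 0.00559), each with no overlap of the libraries. IFT74 was higher by 1.32 (SE 0.42, adjusted p = 0.0487), with M2 replicate 3 at 15.2 CPM below EM2 replicate 2 at 20.8. Without M2 replicate 2, the highest library, the IFT74 difference was 0.58 and was not called (adjusted p = 0.403; 0.00207 to 0.403 over all settings tried). The IFT74 call lay at the threshold: it held in 8 of 21 fits with 1 library left out, and was lost also without a library of EM2 (adjusted p = 0.115 without replicate 1 and 0.158 without replicate 3) and without single libraries of lines outside the comparison (0.0502 to 0.0576). Without M2 replicate 2 CAAP1 just missed the threshold (adjusted p = 0.0545; 3.26e-05 to 0.0545 over all settings tried).

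KLHL9 moved the other way in that comparison and was lower in M2 by 0.77 on the log2 scale (-0.77, SE 0.26, adjusted p = 0.0150), with M2 replicate 2 (28.1 CPM) just above EM2 replicate 3 (27.9 CPM). The call was lost on the TPM scale (adjusted p = 0.127), with the libraries of the 2 lines alone (0.0885), without EM2 replicate 2 (0.0643) and without M2 replicate 3 (0.0739), in a range of 3.66e-05 to 0.127. C9orf72 (1.22, adjusted p = 0.0624), TUSC1 (0.67, adjusted p = 0.229) and MOB3B (0.46, adjusted p = 0.592) were not called by edgeR. TUSC1 was called by DESeq2 (adjusted p = 0.00857), limma-voom (0.0354) and limma-trend on TPM (0.00749), in a range of 0.00749 to 0.357. C9orf72 was called by the same 3 tools (0.0150, 0.0375 and 0.0365), with no low-count filter (0.0319) and with replicates 1 and 2 alone (0.0261), in a range of 0.0150 to 0.283. TUSC1 nevertheless had all M2 libraries above all EM2 libraries, as did 3 of the 7 genes, where 46.9% of all genes tested had no overlap in either direction.

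In M2 against M1, 41.2% of all genes were called, 19.0% higher and 22.2% lower. The called genes among the 7 were CAAP1 (1.62 higher, SE 0.35, edgeR BH-adjusted p = 0.0136), PLAA (0.96 higher, SE 0.23, adjusted p = 0.0207) and KLHL9 (-1.85, SE 0.25, adjusted p = 9.08e-06). CAAP1 lost its call without M1 replicate 3 (adjusted p = 0.0558) and without M2 replicate 2 (0.0978), in a range of 3.68e-05 to 0.0978. PLAA lost it without M1 replicate 3 (0.0725), without M2 replicate 1 (0.0812) and with replicates 1 and 2 alone (0.0544), in a range of 0.000209 to 0.0812. KLHL9 kept its call under every setting tried, with an adjusted p of 1.02e-11 to 0.00197. The share called was thus near the share of all genes in both comparisons with M2, 4 and 3 of 7 against 45.3% and 41.2%.

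Per length, M2 had the highest mean of the 3 expressing lines in all 6 genes. PLAA averaged 34.5 ± 8.85 TPM in M2, 19.3 ± 4.17 in M1 and 15.2 ± 2.08 in EM2 (SD, n = 3 here and below). CAAP1 averaged 18.4 ± 8.48 in M2, 5.80 ± 0.60 in EM2 and 5.49 ± 1.43 in M1. IFT74 averaged 21.5 ± 10.2, 10.9 ± 1.64 and 10.4 ± 1.66 TPM in the same order of lines. TUSC1 averaged 4.31 ± 0.86 in M2, 3.66 ± 0.27 in M1 and 2.67 ± 0.44 in EM2, C9orf72 4.61 ± 2.85, 2.76 ± 0.70 and 2.26 ± 0.34 in that order, and MOB3B 0.46 ± 0.38 in M2, 0.31 ± 0.11 in EM2 and 0.20 ± 0.12 in M1. The libraries of EM2 and M1 overlapped in 5 of the 6 genes on this scale, with TUSC1 as the exception, and the SD of M2 was the largest of the 3 lines in each gene.

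Among the 4 silent lines the 6 genes from TUSC1 to C9orf72 had only 0 to 5 counts per library, and they passed the low-count filter only through EM2, M1 and M2. The 6 possible comparisons of these lines therefore say nothing about them at this depth. KLHL9, with 1413 counts or more per library, was called in 0 of the 6 by edgeR, with 0 at an unadjusted p under 0.05 and 0 by DESeq2, limma-voom or limma-trend on TPM. Its fitted log2 differences lay between 0.08 (EM3 against EM1) and 0.36 (EM3 against Parental). The share of all genes called was 17.9% in EM1 against E, 17.3% in EM3 against E, 0.37% in EM3 against EM1, 10.9% in E against Parental, 2.01% in EM1 against Parental and 3.7% in EM3 against Parental.

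On the telomere side, from RRAGA to KLHL9, 13 genes were tested, and all 13 were fitted lower in M2 than in M1, with 8 called lower and 0 higher (median -1.85, against -0.02 over all genes). Of all genes tested, 22.2% were called lower and 19.0% higher. The 13 include pseudogene and noncoding rows that peaked at only 0.434 to 1.41 CPM. PLIN2, the lipid droplet coat protein, had 895, 1124 and 747 counts in M1 and 1, 0 and 3 in M2. MLLT3, a chromatin reader of the super elongation complex, had 518, 265 and 231 counts in M1 and 2, 0 and 0 in M2. FOCAD stood at 80.3, 56.0 and 85.1 CPM in M1 and at 6.29, 2.80 and 1.93 CPM in M2. RRAGA, a GTPase of amino acid sensing by mTORC1, was lower by 2.95 on the log2 scale (-2.95, SE 0.22, edgeR BH-adjusted p = 9.55e-09). The KLHL9 difference of -1.85 was the median of these 13.

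On the centromere side, from ACO1 to SMU1, 11 genes were tested in M2 against M1, with 1 called higher, 1 lower and a median of 0.19. Of all genes, 19.0% were called higher and 22.2% lower there. APTX, a DNA repair enzyme, was higher by 0.79 (SE 0.18, edgeR BH-adjusted p = 0.00189), and ACO1 was lower (-0.67, SE 0.18, adjusted p = 0.0101). In M2 against EM2 the telomere side again had 7 genes lower and 0 higher (median -1.08). The centromere side had 2 higher and 0 lower (median 0.39), with 10 of its 11 genes fitted above 0. In that comparison 24.3% of all genes were called lower and 21% higher, so the 2 higher of 11 do not stand above the share of all genes. In M1 against EM2 the telomere side had 2 genes higher, RRAGA and KLHL9, and 0 lower. The centromere side also had 2 higher and 0 lower, where 8.37% of all genes were called higher. These were ACO1 (2.51, SE 0.19, edgeR BH-adjusted p = 6.13e-08) and RIGI (1.32, SE 0.42, adjusted p = 0.0362). Differences between the stretch and either side were not tested.

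**Figure D4:**
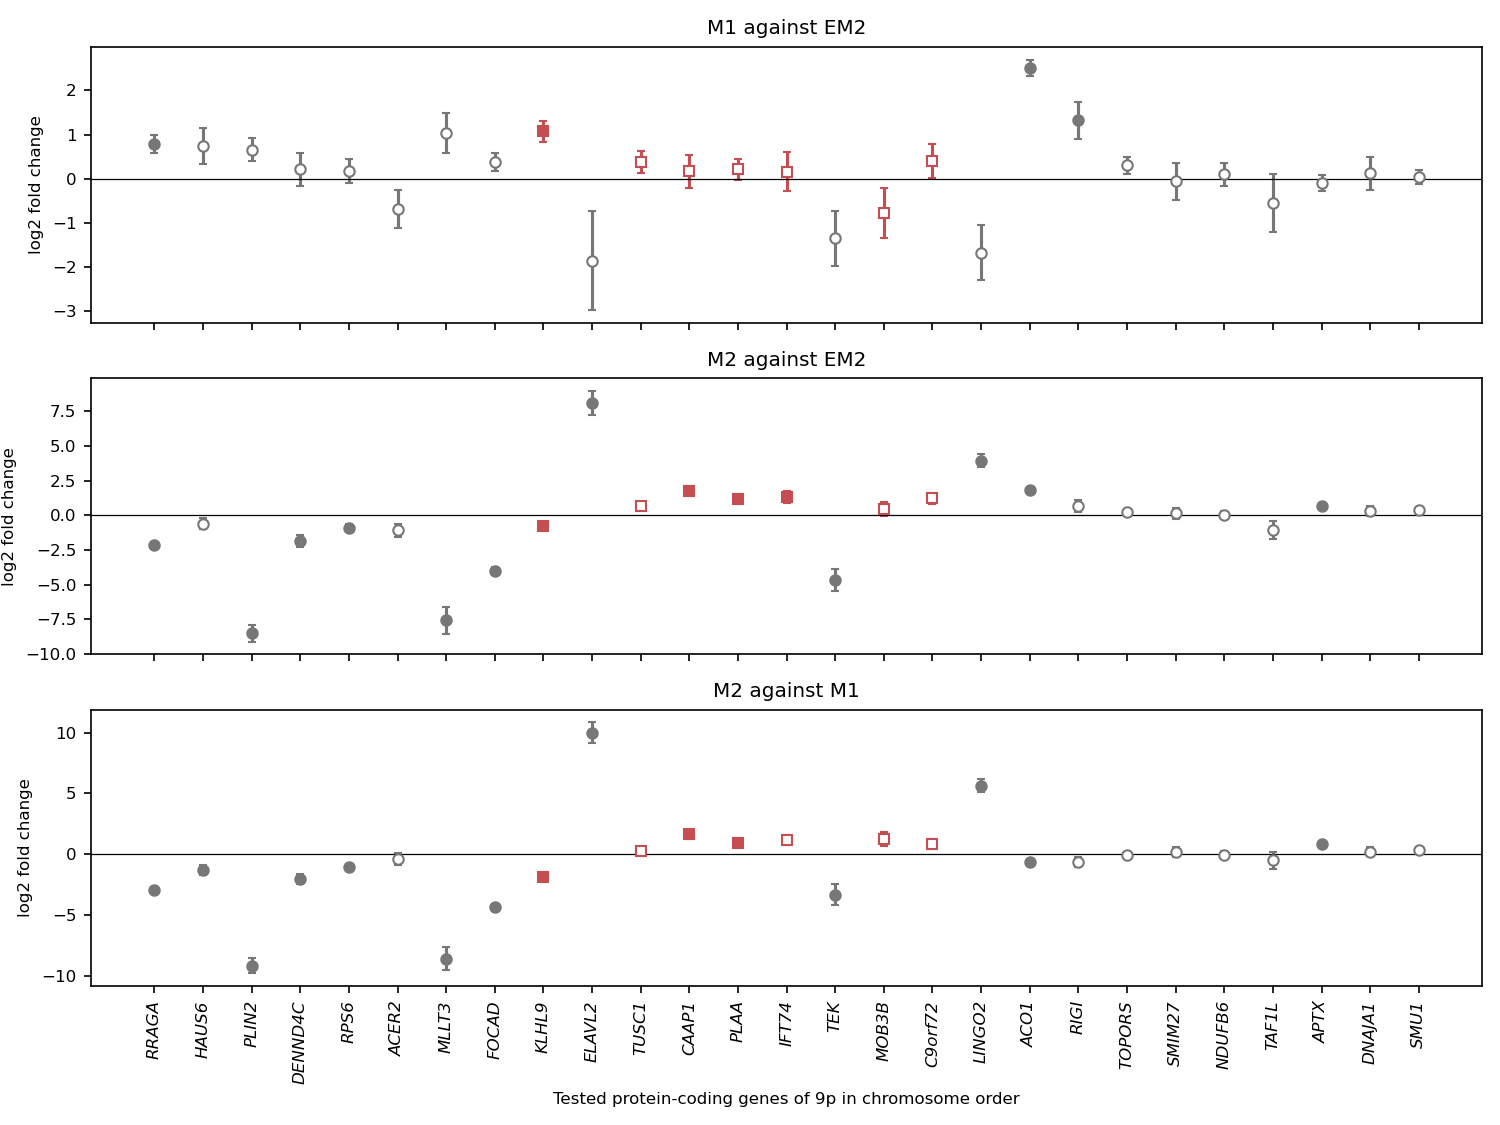
Fitted log2 fold change (edgeR; vertical axis, scaled separately in each panel) of the tested protein-coding genes of 9p in chromosome order, for M1 against EM2, M2 against EM2 and M2 against M1; bars are the limma-voom SE to either side, squares are the 9p21 genes described here, and filled symbols were called at a BH-adjusted p under 0.05. In both comparisons with M2, RRAGA to KLHL9 lie under 0 and TUSC1 to C9orf72, apart from TEK, lie above 0.

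The partners of the proteins that the 10 genes encode were followed in 9 lists written with earlier results of these data known. They are given as counts among EM2, M1 and M2, with the same edgeR test and BH adjustment over all genes. They are read against the shares of all genes called, 17.9% in M1 against EM2, 45.3% in M2 against EM2 and 41.2% in M2 against M1. Downstream of p16 and p15, 15 genes of the retinoblastoma pathway were tested: 1 was higher and 0 lower in M1 against EM2, and 2 were higher and 4 lower in M2 against each of the others (median -0.38 against EM2 and -0.66 against M1, with -0.02 over all genes in each). Cyclin D1 (CCND1), the partner of CDK4 and CDK6, rose from 22.9 ± 12.4 TPM in EM2 to 97.1 ± 34.2 in M1 (edgeR BH-adjusted p = 0.00436) and 212 ± 105 in M2 (9.07e-05). CDKN2D, which encodes the p19 inhibitor of the same family as p16 and lies elsewhere, fell from 12.2 ± 4.52 TPM in EM2 to 3.02 ± 1.57 in M2 (adjusted p = 0.00012). E2F1 fell from 30.0 ± 2.30 TPM in M1 to 11.3 ± 4.85 in M2 (adjusted p = 0.00100).

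For MTAP, 11 genes of methionine salvage and polyamine synthesis were tested: 0 were higher and 1 lower in M1 against EM2, 3 higher and 2 lower in M2 against EM2, and 4 higher and 1 lower in M2 against M1. That is 5 of 11 in each comparison with M2, near the share of all genes. Ornithine decarboxylase (ODC1), the first enzyme of polyamine synthesis, rose from 107 ± 55.2 TPM in EM2 to 431 ± 35.5 in M2 (edgeR BH-adjusted p = 0.00871). The PRMT5 methyltransferase is inhibited by the substrate of MTAP. PRMT5 rose from 91.8 ± 5.01 TPM in EM2 to 161 ± 13.5 in M2 (adjusted p = 0.0196), and 1 of the 4 genes of its complex was called in that comparison.

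Beside IFT74, 16 other genes of the IFT-B particle were tested. In M1 against EM2, 3 were higher and 0 lower, in M2 against EM2 3 were higher and 3 lower, and in M2 against M1 1 was higher and 6 lower, so 6 and 7 of 16 were called with M2, near or under the share of all genes. IFT27 fell from 29.4 ± 6.62 TPM in M1 to 4.73 ± 2.65 in M2 (edgeR BH-adjusted p = 0.000199) and its partner IFT25 from 119 ± 41.3 to 37.0 ± 18.0 (0.000151). CLUAP1, another subunit, rose from 30.5 ± 6.73 TPM in EM2 to 57.2 ± 4.58 in M1 (0.0104) and 53.9 ± 10.7 in M2 (0.000307). Of 6 IFT-A genes, the retrograde particle, 0 were called in M1 against EM2, 2 were higher and 1 lower in M2 against EM2, and 1 was higher in M2 against M1.

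Of 9 genes for VCP and its cofactors, the machinery of PLAA, 0 were called in M1 against EM2 and 1, NPLOC4, in both comparisons with M2. NPLOC4 fell from 163 ± 10.5 TPM in EM2 to 84.2 ± 21.3 in M2 (edgeR BH-adjusted p = 0.00126). Of the 5 partners of KLHL9, 1 was higher and 0 lower in M1 against EM2, and 1 was higher and 1 lower in M2 against EM2. In M2 against M1, 1 was higher and 2 lower. The shares of all genes called were 17.9%, 45.3% and 41.2% in that order. Among these partners the mitotic kinase AURKB fell from 151 ± 62.2 TPM in EM2 to 19.6 ± 8.90 in M2 (edgeR BH-adjusted p = 3.49e-08). KLHL13, the adaptor that acts with KLHL9, had 0 counts in all 3 EM2 libraries and 402, 231 and 330 in the M2 libraries. Of the 2 C9orf72 partners 1 was higher in M2 against EM2 and none was called in the other comparisons. In the MOB family 1 of 6 genes was higher in M1 against EM2 (MOB3A, from 15.7 ± 4.22 to 24.6 ± 3.44 TPM, adjusted p = 0.0399), 1 in M2 against EM2 and 0 in M2 against M1.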

How the data were processed

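Poly(A) RNA of 7 SUM149PT lines was sequenced from one end, 3 libraries each, grouped by the line named in the labels. Per the submitters' processing notes, the authors used bcl2fastq 2.20.0.422, cutadapt 2.4, STAR 2.7.2b on hg38 and RSEM 1.3.2, in an order and with settings that are not given in the sources used here; the annotation release and strand setting are not given either. Per the file headers, the deposited values are expected counts, TPM and effective lengths in bases. Expected counts are reads assigned to a gene, and 7.4 to 8.6% of values in a library were not whole, since RSEM splits reads shared between genes. The TPM the authors deposited scales expected counts by effective length and library.

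Positions came from GENCODE 29 (58542 of 60617 rows) and promoter windows from RefSeq (GRCh38.p14). CPM is the expected count over the library total. Expected counts were rounded and tested with edgeR 4.0.16 in R 4.3.3 (quasi-likelihood, TMM scaling). Low counts were filtered by line, and 1 fit took all 21 libraries, with 14 residual degrees of freedom, so that lines share 1 estimate of the spread. The filter kept 18632 genes. Calls required an adjusted p under 0.05 (BH, over the genes of 1 comparison). Fold changes are edgeR's and SEs come from limma-voom (limma 3.58.1). The code was also run on simulated counts with the same spread for every gene. That setting is simpler than these data and does not bear on the calls made here. Pooled ratios and shares have exact 95% intervals. Other software was Python 3.11.15 with pandas 2.3.3, scipy 1.17.1 and matplotlib 3.10.9.

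The members, the lists of partner genes, the comparisons and the thresholds were chosen with earlier results of these data known. Partner genes were named by a fixed rule, up to 3 per list and comparison with the largest called change and no overlap of libraries, and the text gives a selection of them. Genes like the 9p21 genes are the 5 outside chromosome 9 with the highest correlation. Replicate numbers were not taken as pairs in the main fit of any comparison, and a replicate block was run as an alternative. Same-numbered libraries deviated together in M2 against EM2 (correlations of 0.19, 0.17 and 0.33). They also did so in M2 against M1 (0.25, 0.05 and 0.44) and EM3 against EM1 (0.28, 0.04 and 0.79). Alternatives were other filters, DESeq2 1.42.0 size factors and test, limma-voom, limma-trend on log2(TPM + 1), the compared lines alone, the replicate block, mean effective length as a covariate, replicates 1 and 2 alone, and each library left out. A few genes, and 1 list that turned on such a gene, are withheld and not reported here.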

Additional observations from a re-analysis of the deposited data

How the results depend on the processing

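In M2 against EM2, where 4 of the 10 genes were called, 6 were called with no low-count filter, by DESeq2 and by limma-voom, 5 on TPM and with replicates 1 and 2 alone, 3 with the stricter filter, 2 with the compared lines alone and 2 to 4 with a library left out (2 without M2 replicate 2). In M2 against M1, where 3 were called, 5 were called with no low-count filter and 1 to 5 with a library left out (1 without M1 replicate 3 and 5 without M2 replicate 3). With no low-count filter, the calls in both comparisons with M2 included a gene among MTAP, CDKN2A and CDKN2B, which the main fit did not test. M1 against EM2 gave 1 call and the 6 comparisons among silent lines 0 calls in all settings run, where KLHL9 alone had the counts to be called. The replicate block gave 4 calls in M2 against EM2, 3 in M2 against M1 and 1 in M1 against EM2, and the block changed no call of a 9p21 gene. With low set under 0.1 CPM, 3 of the 10 genes kept the low and present pattern in place of 5, and the whole table held 3 in place of 8. With low set under 1 CPM the table held 13, and with a library left out 8 to 9. The mirrored pattern, 6 genes, gave 2 on TPM, 2 and 14 with low under 0.1 and 1 CPM, and 10 with replicates 1 and 2 alone.

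Directions that reversed were all of uncalled differences, and the cause was not tested. In M1 against EM2, IFT74 was -0.064 on TPM, -0.090 with effective length as a covariate and -0.14 to 0.54 with a library left out, and CAAP1 was -0.086, -0.063 and -0.096 to 0.36 in the same settings. MOB3B in M2 against EM2 was -0.16 with effective length and -0.26 to 0.92 with a library left out. KLHL9 in EM1 against E was -0.25 with effective length and -0.032 to 0.33 with a library left out. It was -0.17 in EM3 against E with effective length, -0.0067 in EM3 against EM1 with replicates 1 and 2 alone (-0.093 to 0.27 with a library left out), and -0.091 in E against Parental on TPM (-0.017 to 0.21 with a library left out). IFT74 in M2 against EM2 also lost its call with the stricter filter (adjusted p = 0.0514) and with the compared lines alone (0.0935). Depth limits the genes near zero: a library with 0 counts allows 0.0623 to 0.122 CPM.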
